A study of Mus musculus with 2 samples.

Results

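Inflammasomes are cytosolic complexes that detect microbial products or damage and activate inflammatory caspases. The 10 genes of these complexes described here are the flagellin and secretion-system receptors Naip1, Naip2, Naip5 and Naip6, the sensor Nlrp6, the adaptor Pycard, the proteases Casp1 and Casp4, the pore protein Gsdmd and the cytokine Il18. They were chosen by name, with earlier results of these data known, and all 10 were found among the 22350 gene symbols of the series. The data are messenger RNA profiles of colon epithelial cells from C57BL/6 mice, with 1 library from Wild Type and 1 from Pkm2-/- animals. For 3 days both groups were given 2.5% DSS (dextran sulfate sodium, which damages the epithelium of the colon), so no untreated colon was compared. The sources used here do not give how many animals were pooled, their age and sex, or how the knockout allele was built. The comparison sets the genotypes side by side under DSS, and with 1 library per genotype no difference has a replicate check.

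In the NAIP-NLRC4 inflammasome a NAIP protein binds its bacterial ligand and then nucleates a ring of NLRC4, which recruits caspase-1 directly or through the adaptor ASC, the product of Pycard. Caspase-1 cleaves pro-IL-18 and gasdermin D, whose freed fragment forms pores in the plasma membrane. Mouse Casp4 encodes caspase-11, which binds bacterial lipopolysaccharide itself and also cleaves gasdermin D. In the intestine this machinery is known for the expulsion of infected epithelial cells and for the release of IL-18, a cytokine made by the epithelium at rest.

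The 4 Naip genes are close copies that lie side by side on chromosome 13 of GRCm38 (100144063 to 100452869, minus strand), in the order Naip2 (to 100202092), Naip5 (100211739 to 100246323), Naip6 (100281121 to 100317674) and Naip1 (from 100407764). Their sequences are shown first because shared reads bear on every Naip value. In alignments of their coding sequences from GENCODE M21, Naip5 and Naip6 were identical at 96.96% of 4209 aligned bases, while Naip2 and Naip6 were identical at 89.5% of 4206. The longest run without a difference was 229 bases between Naip5 and Naip6 and 175 bases between Naip1 and Naip2. The first 60-base stretch in which all 4 coding sequences are the same reads as follows, from coding base 1420 in Naip1, Naip5 and Naip6 and from base 1552 in Naip2.
Naip1: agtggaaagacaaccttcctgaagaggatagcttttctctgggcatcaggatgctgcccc
Naip2: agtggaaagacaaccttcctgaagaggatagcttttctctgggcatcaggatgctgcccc
Naip5: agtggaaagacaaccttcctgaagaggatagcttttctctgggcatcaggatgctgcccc
Naip6: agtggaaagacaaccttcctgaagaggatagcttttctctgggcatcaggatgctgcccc

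A fragment that falls inside such a stretch cannot be given to 1 copy from its sequence. The 60-base stretch with the most differences lies from coding base 2901 in Naip1, Naip5 and Naip6 and from base 3033 in Naip2. Capitals mark the 36 positions at which the 4 copies are not all the same.
Naip1: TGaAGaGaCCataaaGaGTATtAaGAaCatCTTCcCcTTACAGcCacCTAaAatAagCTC
Naip2: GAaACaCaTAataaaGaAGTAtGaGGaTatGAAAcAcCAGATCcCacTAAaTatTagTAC
Naip5: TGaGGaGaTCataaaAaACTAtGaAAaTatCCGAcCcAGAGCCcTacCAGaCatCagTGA
Naip6: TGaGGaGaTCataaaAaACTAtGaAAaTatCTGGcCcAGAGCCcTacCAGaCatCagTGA

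Over whole transcripts, the share of 31-base words that also occur in another Naip entry was 44.7% for Naip1, 31.7% for Naip2, 51.3% for Naip5 and 34.7% for Naip6. The largest partner of Naip1 was Naip3, annotated as an unprocessed pseudogene of the same cluster, which held 33.5% of its words. Naip5 shared most with Naip6, at 36.7% of its words. The split of reads among these genes is therefore uncertain, and the separate Naip values below carry that limit.

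Values are FPKM, fragments counted per length of transcript, relative to all mapped fragments. The wild type file listed 20793 genes and the knockout file 20604, and the lowest values stepped by the worth of 1 fragment at about 18600000 and 20400000 fragments. Pkm, the gene targeted in the knockout, stood at 281 FPKM in wild type against 86.2 in the knockout library. That value sums the Pkm1 and Pkm2 isoforms and did not check Pkm2 alone. All 10 colon epithelium markers were listed in both libraries, with summed levels of 6526 and 7483 FPKM and none past 1.5-fold, so the markers did not go against the label. A gene is called higher or lower here when it was at least 1.5-fold apart on the log2(FPKM + 1) scale, which understates the difference of low genes. Of 12429 genes averaging 1 FPKM or more, 9.75% were apart by this measure, 4.46% higher and 5.29% lower in the knockout library, and the median log2 ratio was 0.06. Intervals are 95% counting intervals on implied fragments, cover counting error only and say nothing of differences between animals.

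Of the 10 inflammasome genes, all with a mean above 1 FPKM, 2 were at least 1.5-fold higher in Pkm2-/- (Pycard and Nlrp6). Another 2 were at least 1.5-fold lower (Il18 and Naip1), beside 4.46% higher and 5.29% lower among all genes. None of the 10 reached 2-fold, a size that 3.31% of all genes reached, 1.42% higher and 1.9% lower. The other 6 lay within 1.5-fold. The 10 had a median log2 ratio of -0.09, with 5 above 0 and 5 below, beside 58.8% of all genes above 0. Among the 5 above, Naip2 and Casp4 were near 0 and changed sign with equal library medians. The nearest member inside the 1.5-fold line was Casp1 and the nearest one past it was Nlrp6.

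**Figure D1:**
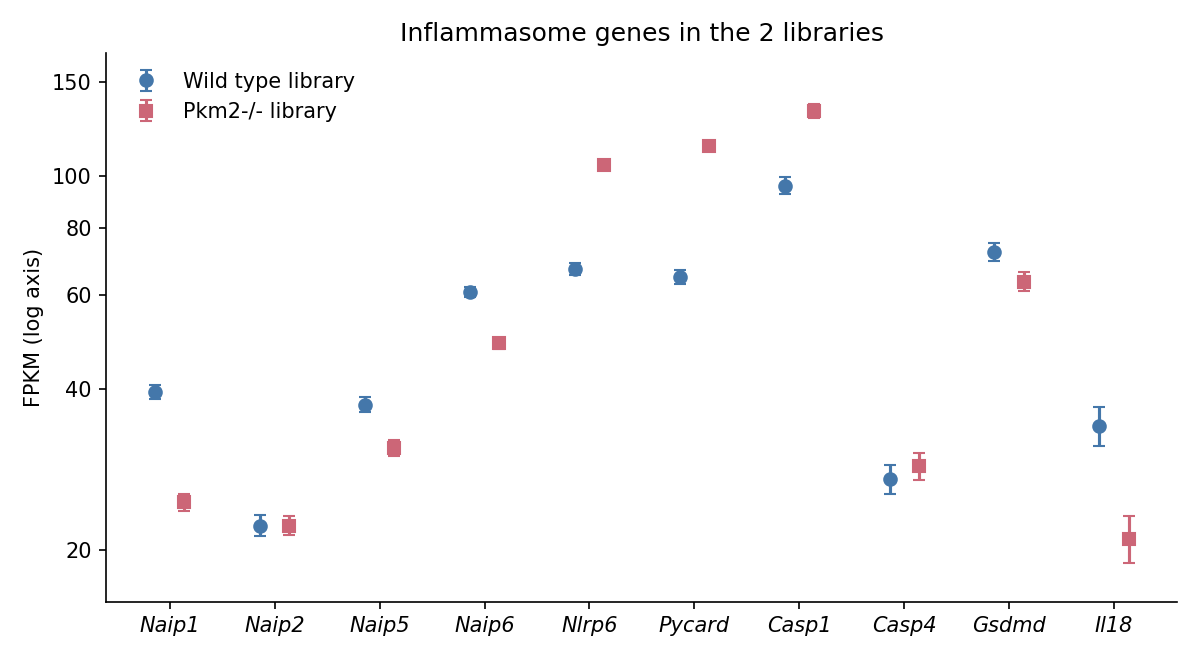
FPKM on a log axis of the 10 inflammasome genes in the wild type library (circles) and the Pkm2-/- library (squares), 1 library each, with bars for 95% counting intervals. Pycard, Nlrp6 and Casp1 sit higher in the knockout library, at 114, 105 and 133 FPKM, while Naip1 and Il18 sit lower, at 24.6 and 20.9 FPKM.

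Among the receptors, Naip1, which senses the needle protein of type III secretion systems, stood at 39.5 FPKM in wild type against 24.6 FPKM in Pkm2-/-. It was 1.61-fold lower in the knockout (counting interval 1.53 to 1.69), and 521 of the 12429 genes had a lower log2 ratio. Naip2, the receptor for the inner rod protein of the same secretion systems, was level at 22.2 FPKM in both libraries, with a counting interval of the knockout over wild type ratio from 0.941 to 1.06. The log2 ratios of Naip1 and Naip2 were -0.66 and 0.00.

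The flagellin receptors lay between them. Naip5 stood at 37.4 FPKM in wild type against 31.1 FPKM in Pkm2-/-, 1.20-fold lower (counting interval 1.15 to 1.26). Naip6 was the most abundant receptor in both libraries, at 60.8 and 48.7 FPKM, 1.25-fold lower in the knockout (counting interval 1.21 to 1.29). Both differences were beyond counting error and within the 1.5-fold line.

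Summed over the 4 receptors, which depends less on how reads were split among them, the family stood at 159.9 FPKM in wild type against 126.6 FPKM in Pkm2-/-. The sum was 1.26-fold lower in the knockout, with a log2 ratio of -0.33, inside the 1.5-fold line. Naip1 made up 24.7% of the sum in wild type against 19.4% in Pkm2-/-, and Naip2 13.9% and 17.6%. Naip5 (23.4% and 24.6%) and Naip6 (38.0% and 38.5%) kept nearly the same shares. The pseudogene Naip3, chosen after its values were seen, stood at 17.4 and 10.8 FPKM, 1.62-fold lower in Pkm2-/-, a fold next to that of Naip1, with which it shares the most sequence. With Naip3 added, the sum was 177 and 137 FPKM, 1.29-fold lower in the knockout.

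**Figure D2:**
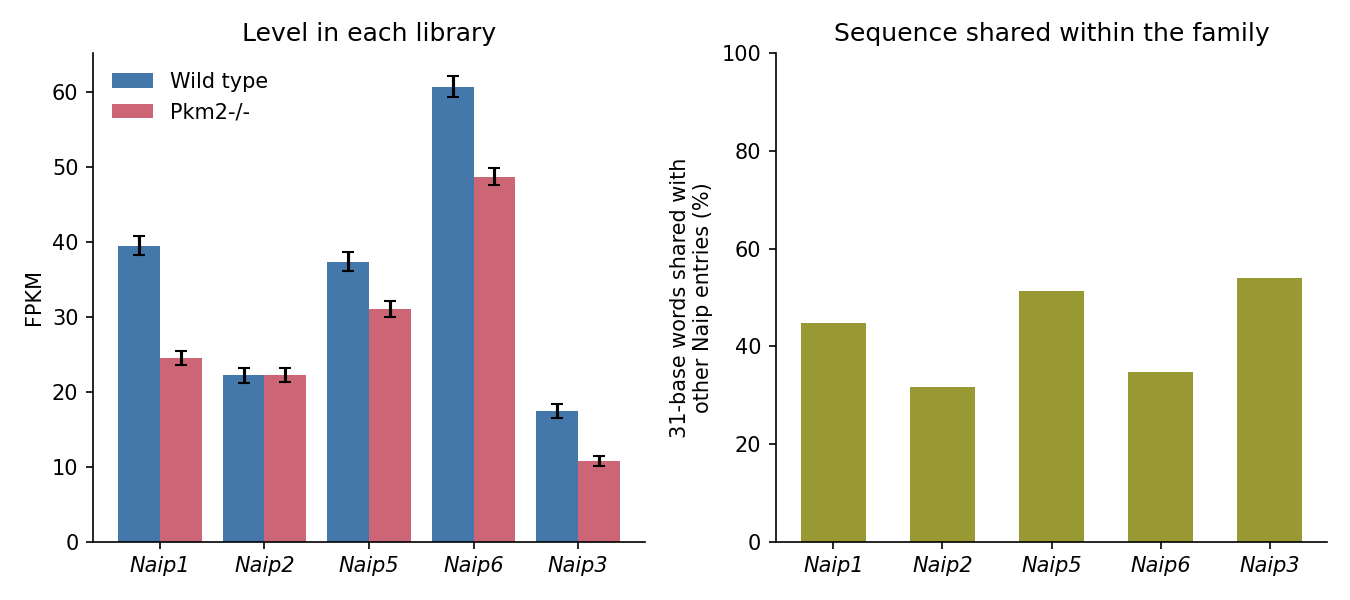
Left, FPKM of the 4 Naip genes and of the pseudogene Naip3 in the wild type and Pkm2-/- libraries, with 95% counting intervals. Right, the percent of each transcript's 31-base words that occur in another Naip entry, which runs from 31.7% for Naip2 to 54.0% for Naip3.

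The stretch just before the transcription start was compared within the family as well, because Naip1, Naip2 and Naip5 share a word there while their ratios differ. In RefSeq promoters on GRCm38.p6, the longest word common to the 250 bases upstream of all 3 had 11 bases, shown in capitals at the head of 60 bases from each gene. It begins 110 bases before the annotated start of Naip1, 73 before that of Naip2 and 80 before that of Naip5, all on the minus strand. The Naip1 block is chr13:100452915-100452974, the Naip2 block chr13:100202136-100202195 and the Naip5 block chr13:100247357-100247416.
Naip1: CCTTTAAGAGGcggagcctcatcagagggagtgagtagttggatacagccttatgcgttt
Naip2: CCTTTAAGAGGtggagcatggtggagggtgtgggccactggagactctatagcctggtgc
Naip5: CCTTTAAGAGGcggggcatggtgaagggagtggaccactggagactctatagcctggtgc

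The Naip6 window did not hold that word, but it precedes a RefSeq start 1058 bases inside the deposited locus. The RefSeq start of Pycard likewise lies 2731 bases inside its deposited locus. The RefSeq starts of Naip1, Naip2 and Naip5 lie 6458, 30 and 1013 bases beyond the ends of the deposited loci, and that of Il18 lies 20573 bases before its deposited locus, so for these 4 genes the window belongs to a start that the deposited gene model does not hold.

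NLRC4 itself, the partner on which all NAIP receptors converge, was close in both libraries, with Nlrc4 (chromosome 17, 74425438 to 74459142) at 11.6 FPKM in wild type against 10.6 FPKM in the knockout. The summed Naip level was 13.8 times that of Nlrc4 in wild type against 11.9 times in Pkm2-/-. Nlrp6, a sensor known from the intestinal epithelium (chromosome 7, 140920902 to 140929192), stood far above Nlrc4, at 67.2 FPKM in wild type against 104.9 FPKM in Pkm2-/-. It was 1.56-fold higher in the knockout (counting interval 1.51 to 1.61), and 457 genes had a higher log2 ratio. With the libraries scaled to equal medians or equal upper quartiles, its log2 ratio was 0.55 or 0.57, under the 1.5-fold line at 0.58. Nlrp6 stood at 5.82 times the level of Nlrc4 in the wild type and 9.86 times in the knockout.

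Pycard, which encodes the adaptor ASC that links sensors to caspase-1 (chromosome 7, 127989708 to 127993867), had the largest ratio of the 10. It stood at 64.7 FPKM in wild type against 114.0 FPKM in Pkm2-/-, 1.76-fold higher (counting interval 1.70 to 1.83), and 267 genes had a higher log2 ratio. Its annotated transcripts run from 493 to 3800 bases, so its FPKM also rests on how fragments were divided between a short and a long form, which the files do not give. With the short form alone the counting interval was 1.59 to 1.95. The deposited locus extends to 127996598, over the unlisted opposite-strand entry Gm45205, and the sources used here do not state strand use. Words of the length used for the Naip genes were also searched in Pycard. In its longest transcript, 12.8% of words occurred in another gene, the largest share among members outside the Naip family. Gm45205 held 12.1% of its words. Over both annotated transcripts, 481 of 3796 words (12.7%) occurred in another gene. The Pycard value carries that limit.

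Casp1, the protease that cleaves pro-IL-18, was the most abundant of the 10 in both libraries. It stood at 96.1 FPKM in wild type against 132.6 FPKM in Pkm2-/-, 1.38-fold higher (counting interval 1.31 to 1.45). Casp4, its neighbour on chromosome 9 (Casp1 at 5298517 to 5307265, Casp4 at 5308828 to 5336783), was at 27.1 and 28.7 FPKM, and the counting interval of its ratio, 0.968 to 1.15, held 1. The level of Casp1 was 3.54 times that of Casp4 in wild type against 4.62 times in Pkm2-/-. The third caspase gene of this cluster, Casp12, had the largest fold of the caspase list, at 1.45 and 5.10 FPKM, 3.52-fold higher in the knockout (counting interval 2.69 to 4.60). The 1 annotated Casp1 transcript and the longest protein-coding Casp4 transcript shared no 31-base word with a transcript of another gene. Over all 7 annotated Casp4 transcripts, a search added after the values were seen, 74 of 3733 words (1.98%) did.

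Gsdmd, the pore-forming substrate of both caspases (chromosome 15, 75862327 to 75867408), stood at 72.2 FPKM in wild type against 63.5 FPKM in Pkm2-/-. It was 1.14-fold lower in the knockout (counting interval 1.07 to 1.21), inside the 1.5-fold line. In the wild type library Gsdmd was second in level among the 10, and in the knockout it was the fourth, behind Casp1, Pycard and Nlrp6.

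Il18, the cytokine released downstream (chromosome 9, 50554827 to 50581840), had the lowest ratio of the 10, at 34.1 FPKM in wild type against 20.9 FPKM in Pkm2-/-. It was 1.63-fold lower in the knockout (counting interval 1.43 to 1.86), and 500 genes had a lower log2 ratio. Its short transcripts, at most 885 bases, gave about 563 and 379 fragments, the fewest of the 10 genes. Il18 lies 9.10 Mb from Pkm on the same chromosome, and Casp1 and Casp4 lie 54.4 and 54.3 Mb from Pkm. Of 13 measured genes within 250 kb of Il18, 3 were at least 1.5-fold lower and none higher, beside 5.29% and 4.46% of all genes. The median log2 ratio of these 13 was -0.18, with a lowest value of -1.72 at Dixdc1. In windows of the same size, 1 of 17 genes around Pycard, 1 of 13 around Nlrp6 and 1 of 12 around the Naip cluster were at least 1.5-fold higher, and none in those windows was lower by 1.5-fold. Around Gsdmd, 3 of 17 genes were at least 1.5-fold lower and none higher, with a median log2 ratio of -0.10, and around Casp1 and Casp4 the 1 measured gene was Casp12, higher in the knockout.

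The decoy that binds the cytokine went the other way. Il18bp, which encodes the soluble IL-18 binding protein that keeps IL-18 from its receptor, stood at 16.1 FPKM in wild type against 51.8 FPKM in Pkm2-/-, 3.22-fold higher (counting interval 2.98 to 3.50). Per length, Il18bp was at 0.471 times the level of Il18 in wild type against 2.47 times in Pkm2-/-. The receptor subunit gene Il18r1 was low in both, at 0.260 and 0.384 FPKM on about 20 and 33 fragments.

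**Figure D3:**
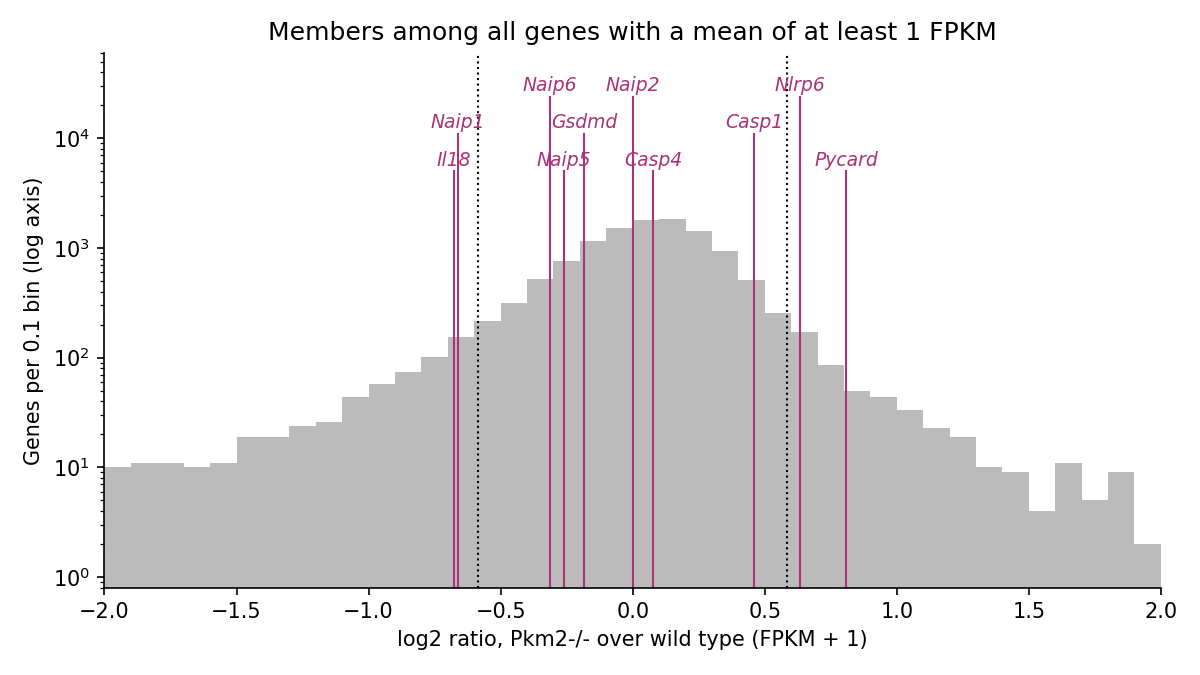
Number of genes (log axis) per 0.1 bin of the log2 ratio of knockout over wild type, for genes averaging 1 FPKM or more, drawn between -2 and 2. Vertical lines mark the 10 inflammasome genes and dotted lines the 1.5-fold limits, with Il18 and Naip1 beyond the lower limit and Nlrp6 and Pycard beyond the upper one.

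In order of level, the 4 highest genes of the wild type library were Casp1, Gsdmd, Nlrp6 and Pycard, of which Nlrp6 and Pycard overlapped in their counting intervals. The intervals of Naip1 and Naip5 overlapped there too, as did those of Naip5 and Il18. In the knockout library Casp1, Pycard and Nlrp6 led, none of them overlapping the next in its interval, and Il18 was last, overlapping Naip2. Naip5 and Casp4 overlapped there too. Every member stood above the 80th percentile of the listed genes in both libraries, from 83.6 for Naip2 to 96.7 for Casp1 in the wild type and from 81.6 for Il18 to 97.7 for Casp1 in the knockout.

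Beyond the 10 genes, 7 lists of related genes held 81 symbols, 55 of them with a mean of at least 1 FPKM. Of these 55, 13 were at least 1.5-fold higher in Pkm2-/- and 1 was at least 1.5-fold lower, together 25.5% beside 9.75% of all genes. The median log2 ratio was 0.14, beside 0.06 over all genes. The lists were picked with earlier results of these libraries known, so the shares describe these genes only.

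Of 7 other sensors measured, 2 had log2 ratios above 0 and 5 below, beside 58.8% of all genes above 0. Their median log2 ratio was -0.11, or -0.26 among those with a mean of at least 5 FPKM. By the 1.5-fold measure 1 sensor was lower and none higher, beside 5.29% and 4.46% of all genes. The lower one was Nlrp9b, known from intestinal epithelial defence against rotavirus, at 26.7 FPKM in wild type against 15.7 FPKM in Pkm2-/-, 1.70-fold lower (counting interval 1.57 to 1.83). Aim2, a sensor of cytosolic DNA, stood at 36.1 and 25.4 FPKM, inside the 1.5-fold line at a log2 ratio of -0.49. Nlrp3, the sensor best known from macrophages, was near the limit of detection, at 0.239 and 0.0492 FPKM on about 18 and 4 fragments.

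The median log2 ratio of 18 caspases and cofactors was 0.06, equal to that of all genes at 2 decimals. Of the 18, 2 were at least 1.5-fold higher and none lower, beside 4.46% and 5.29% of all genes. Casp12, given above, had the larger fold of those 2. Casp8, which can be recruited by ASC, was level at 62.8 and 61.2 FPKM. Of 6 gasdermins and rupture genes measured none passed 1.5-fold, beside 9.75% of all genes. Ninj1, needed for membrane rupture after pore formation, was at 12.0 and 11.6 FPKM. The Gsdmc genes of this list are close copies with uncertain separate values.

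Il1b, the other main substrate of caspase-1, was barely listed, at 0.141 and 0.713 FPKM on about 4 and 20 fragments. The alarmin Il33 was at 0.238 and 0.404 FPKM. The only cytokine of the IL-1 list with a mean of at least 1 FPKM was the receptor antagonist Il1rn, at 14.3 and 12.5 FPKM. Of 7 genes measured on the receptor and decoy list, which also holds the signalling genes Myd88, Irak1 and Irak4, Il18bp alone passed 1.5-fold. Of all genes, 9.75% did. The list's median log2 ratio was -0.06, the value of Irak4. With a mean of at least 5 FPKM that median turned to 0.15, the value of Myd88. The receptor genes Il1r1, Il1rap and Sigirr had log2 ratios of -0.27, -0.33 and -0.17.

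The 7 GTPases chosen were higher in Pkm2-/- without exception. They attack bacteria or their vacuoles and expose lipopolysaccharide to caspase-11 or, for Irgm1, regulate other GTPases of this kind. Their median log2 ratio was 1.69, and 5 of them passed 2-fold, beside 1.42% of all genes at least 2-fold higher. Gbp2 stood at 19.3 FPKM in wild type against 176 FPKM in Pkm2-/-, 9.13-fold higher (counting interval 8.53 to 9.79), and Gbp5 at 1.26 and 9.56 FPKM. Gbp6 was at 25.1 and 89.8 FPKM, Gbp7 at 16.1 and 54.3, Gm12250, which encodes Irgb10, at 29.2 and 77.4, Irgm1 at 124 and 227, and Gbp3 at 31.7 and 55.9 FPKM. Guanylate-binding protein genes are similar to one another, which adds uncertainty to their separate values. Casp4, whose product senses the exposed lipopolysaccharide, was close in both libraries, as given above.

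Of 9 transcription factors known for these genes, 3 were at least 2-fold higher in Pkm2-/-, beside 1.42% of all genes. None was lower by 1.5-fold, beside 5.29% of all genes, and the median log2 ratio was 0.19. Irf1, an interferon-induced activator of guanylate-binding protein genes, stood at 103 FPKM in wild type against 247 FPKM in Pkm2-/-, 2.41-fold higher (counting interval 2.32 to 2.49). Irf8, known as a driver of Naip gene transcription in macrophages, stood at 42.2 and 135 FPKM, 3.20-fold higher (counting interval 3.07 to 3.34). Irf2, known as an activator of Gsdmd transcription, was at 35.2 and 32.3 FPKM.

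**Figure D4:**
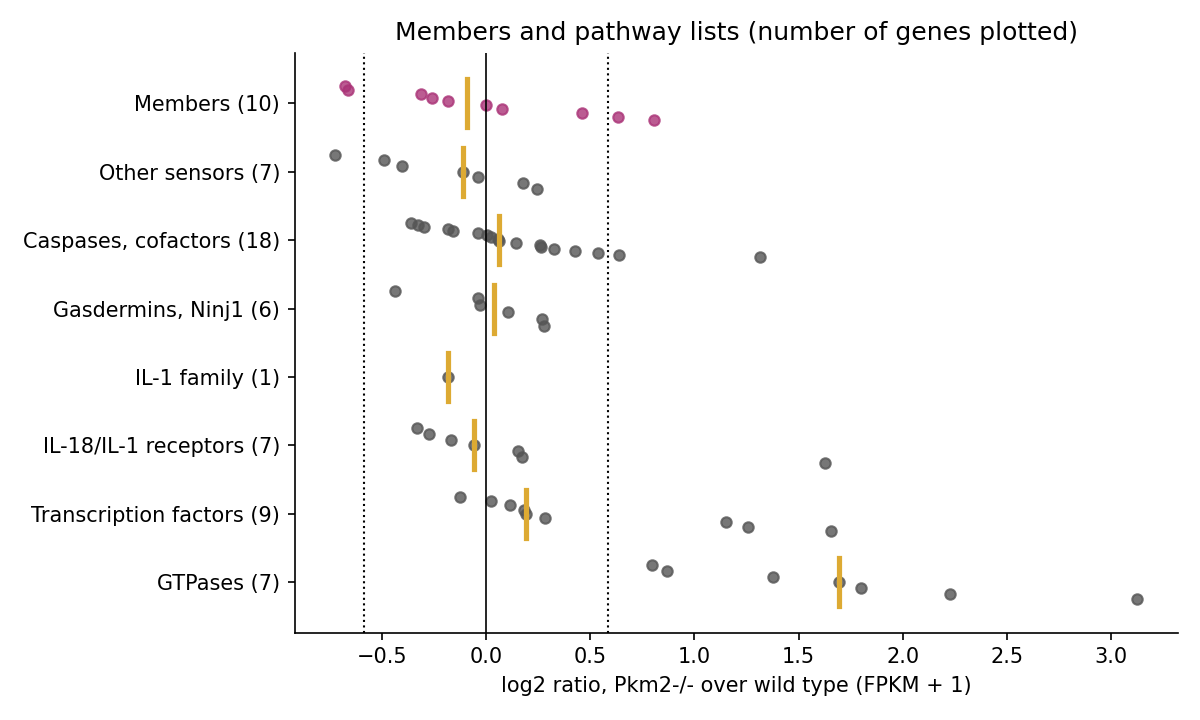
Log2 ratio of knockout over wild type on the FPKM + 1 scale for each gene averaging 1 FPKM or more, by list, with the number of genes plotted. Points are genes, thick ticks list medians and dotted lines the 1.5-fold limits; all 7 GTPases lie beyond the upper limit, with a median of 1.69, and the members lie on both sides of 0.

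RefSeq promoters were found for 9 of the 10 genes, Gsdmd being the missing one. In the 250 bases upstream of the start, 3 short motifs were searched separately on both strands: GAAANNGAAA for interferon response elements, TTCNNNGAA for STAT sites and GGGANTTTCC for NF-kB sites. They occurred in 2.98%, 7.02% and 0.356% of 32851 promoters of that length. None of the 10 promoters of the 9 genes held any of the 3 words, which says only that these letters are not in these windows. The NF-kB word covers only some forms of that site. The wider NF-kB consensus, which includes that word and was added after the windows were seen, occurred in 1643 of the 32851 promoters and, among the 9 genes, only in Casp4, in both of its overlapping windows. The Casp4 window chr9:5308599-5308848 (plus strand) is shown for these 3 matches, in capitals, which begin at -93, -92 and -39 from the start and of which the first 2 overlap.
Casp4: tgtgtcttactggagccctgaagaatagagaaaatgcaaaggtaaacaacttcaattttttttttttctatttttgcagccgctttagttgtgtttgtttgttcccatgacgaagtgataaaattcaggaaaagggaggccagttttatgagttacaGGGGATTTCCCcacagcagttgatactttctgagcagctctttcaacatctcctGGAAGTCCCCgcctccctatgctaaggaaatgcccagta
A match is a description of letters, and Casp4 was close in both libraries, as given above.

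Markers of other cell types were set beside these genes, since ASC, caspase-1 and caspase-11 are also made by leukocytes. In bulk RNA, more cells of a type and more RNA per cell cannot be told apart. All 12 macrophage and dendritic cell markers were listed, 10 of them with a larger value in the knockout. Of all genes averaging 1 FPKM or more, 58.8% had a larger value there. Of the 8 markers averaging 1 FPKM or more, 4 passed 1.5-fold upward and none downward, beside 4.46% and 5.29% of all genes. The summed levels of the list were 12.9 FPKM in wild type against 27.6 FPKM in Pkm2-/-. The defining markers Adgre1 (0.0925 and 0.230 FPKM) and Csf1r (0.282 and 0.472 FPKM) were low in both. The 3 markers of that list past 2-fold on the FPKM + 1 scale were Laptm5 at 3.29 and 9.84 FPKM, Fcer1g at 0.804 and 4.22 FPKM, and Itgax at 0.355 and 1.71 FPKM. The 2 with a smaller value in the knockout were Cd68 at 1.63 and 1.56 FPKM and Lyz2 at 2.97 and 2.74 FPKM. All 10 T cell markers had a larger value in the knockout library, and all 8 averaging 1 FPKM or more passed 1.5-fold upward, with summed levels of 18.7 and 84.3 FPKM. Of 8 neutrophil markers, 5 were listed in neither library, S100a8 and S100a9 among them. Besides Ly6g, only Cxcr2 (0.0818 and 0.0163 FPKM) and Csf3r (0.0144 and 0.0531 FPKM) were listed. The summed level, 25.5 and 13.2 FPKM, was nearly all Ly6g and so describes that gene rather than neutrophils. The part of these cells in the higher Pycard, Nlrp6 and Casp1 values was not tested.

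Markers of the upper crypt and surface colonocyte moved as well. Of 7 measured, 5 were at least 1.5-fold lower in Pkm2-/- and none higher, beside 5.29% and 4.46% of all genes. Their summed levels were 6303 and 3955 FPKM, with a median log2 ratio of -0.81. Car4, a carbonic anhydrase of these cells, stood at 275 and 53.0 FPKM, while Krt20 was level at 331 and 333 FPKM. Of 7 goblet cell markers, 2 had log2 ratios above 0 and 5 below, and 2 were at least 1.5-fold lower and none higher. The lower ones were Clca1 at 768 and 294 FPKM and Fcgbp at 601 and 365 FPKM. The summed level, most of it Muc2 (7418 and 7504 FPKM), was 11637 FPKM in wild type against 10623 FPKM in the knockout. The part of these cells in the lower Il18 and Naip1 values was not tested.

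**Figure D5:**
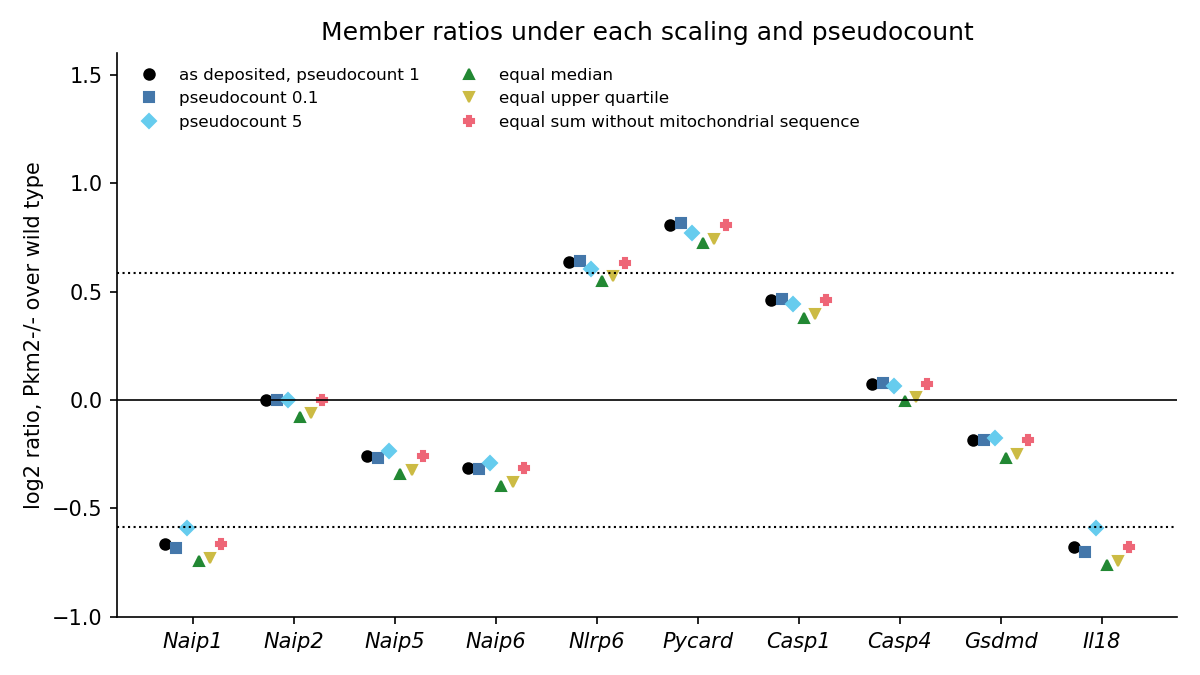
Log2 ratio of knockout over wild type for each of the 10 genes as deposited with a pseudocount of 1, with pseudocounts of 0.1 and 5, and under 3 rescalings of the knockout library. Nlrp6 lies under the upper 1.5-fold line with equal medians (0.55) and equal upper quartiles (0.57), and no other gene crosses a line.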

How the data were processed

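The authors deposited 1 FPKM value per Ensembl gene, symbol and locus for each library, and only values above 0 are listed. As no header names the unit, it rests on the values and on the tools in the submitters' processing notes, which list Cufflinks 2.2.1, Cuffdiff (1.3.0 and 2.2.1), Bowtie2 2.2.9 and TopHat2 2.1.1 and name the build mm8; yet of the 99.4% of 22384 gene IDs found in GENCODE M21, 99.9% had a locus overlapping that gene on GRCm38, whose coordinates are printed.

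Here, values were summed per symbol, an unlisted gene was set to 0, and log2((knockout FPKM + 1)/(wild type FPKM + 1)) was computed with Python 3.11.15, with no test, since there was 1 library per genotype. A fold is the plain FPKM ratio. The fragment step, in FPKM times kb, was 0.0536 in wild type against 0.0490 in Pkm2-/-, read from 368 and 358 genes with 1 transcript over 1.5 kb. Clopper-Pearson intervals of folds and exact Poisson intervals of levels used that step and the longest transcript. Functions were tested on simulated data. Coding sequences were aligned with MAFFT 7.526. The members and lists were chosen with earlier results of these data known. Named genes were the 10 members, the list genes past 1.5-fold, of which 2 are counted but not reported here, and Nlrc4, Nlrp3, Aim2, Casp8, Il1b, Il33, Il18r1, Il18bp, Irf1 and Ninj1; further genes were named after their values were seen, as was the shared promoter word.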

Additional observations from a re-analysis of the deposited data

How the results depend on the processing

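With a threshold of 2-fold in place of 1.5-fold, 0 of the 10 genes were apart, 0 higher and 0 lower, and 0 pathway genes were lower. With equal medians or equal upper quartiles, 1 gene, Pycard, was at least 1.5-fold higher in place of 2. The summed Naip log2 ratio was -0.42 with equal medians, -0.40 with equal upper quartiles and -0.37 with Naip3 added, an alternative chosen after seeing the data, against -0.33 as deposited. These shifts follow from the factors on the knockout library, 0.943 and 0.956, and from the added gene. Without mitochondrial genes and 7 chromosome 1 entries of mitochondrial sequence, together 30.0% and 26.1% of the FPKM sums, the factor was 0.999. Casp4 had a log2 ratio of -0.01 with equal medians, and Naip2 one of -0.08, and neither passed 1.5-fold under any scaling or pseudocount tried; the other 8 genes kept their sign under all of these. With a pseudocount of 5, 4.42% of all genes were at least 1.5-fold apart. With a mean of at least 5 FPKM, the median log2 ratio of the receptor and decoy list turned from -0.06 (Irak4) to 0.15 (Myd88), on fewer genes. That of the other sensor list, which includes Dpp8 and Dpp9, went from -0.11 to -0.26, also on fewer genes. The IL-1 family median was -0.02 without a filter, and the GTPase median 1.27 with a pseudocount of 5. With the shortest protein-coding transcript, the fold's interval left out 1 for 8 of 10 genes, as with the longest. No paired analysis was possible because there was 1 library per genotype, and for the same reason no library could be left out. Depth limited Nlrp3 and Il1b, each with 20 or fewer implied fragments per library.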
